A study of Mus musculus with 8 samples.

Results

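The genes described here were the alpha and beta T cell receptor segments of the mouse: every gene whose symbol began with Trav, Trac, Trbv, Trbd, Trbj or Trbc. Trav segments shared with the delta locus (10 genes) and all Traj segments (60 genes) were left out. The rule gave 157 of the 52661 genes in each table: 103 Trav, 1 Trac, 35 Trbv, 2 Trbd, 14 Trbj and 2 Trbc. By their annotation, 18 Trav, 13 Trbv and 1 Trbj segments were pseudogenes.

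The RNA came from intraepithelial lymphocytes of C57BL/6 mice, sorted by flow cytometry as CD45+ cells and then cultured. Both groups were kept for 24 h at 37 C in RPMI medium with 10% serum, and the treated group also received osteopontin, a secreted phosphoprotein and cytokine, at 2 ug/ml. There were 4 osteopontin libraries and 4 libraries without osteopontin (null), named 1, 2, A and B in each group. The labels did not say which mice or cultures the libraries came from or what the shared names stood for, so p-values measure the differences among these libraries alone, and those may be technical. Wherever 4 values per group are given below, they stand in the order 1, 2, A, B.

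The T cell receptor of most T cells is a pair of an alpha and a beta chain. In the thymus a Trav segment is joined to a Traj segment, and a Trbv segment to a Trbd and a Trbj segment. RNA splicing then links the joined exon to Trac, or to Trbc1 or Trbc2. Each T cell clone keeps its own choice, so the reads on each segment in bulk RNA reflect both how many cells use it and how much receptor RNA each cell makes, which cannot be told apart here. The intestinal epithelium also holds many gamma-delta T cells, and some of its alpha-beta T cells are large clones.

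The alpha genes lay on chromosome 14, with Trav segments between positions 52427928 and 53977678 and Trac at chr14:54220521-54224206 on the plus strand. The beta genes lay on chromosome 6. Trbv segments ran from 40891229 to 41558452, Trbj segments from 41533864 to 41543856, Trbc1 was at chr6:41538218-41539881 and Trbc2 at chr6:41546730-41548352. Trbv31, at chr6:41557691-41558452, lay beyond Trbc2 and was the Trbv segment on the minus strand. Positions and sequences are from GENCODE M21 (GRCm38), in which all 195 transcripts of these genes had the versioned identifier and length that the tables give.

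The Trbj segments are short enough to read whole. The first 3 below had the highest read counts and the last 3 lacked the run TTNGGNNNNGG on the plus strand. That run covers the phenylalanine-glycine-X-glycine codons typical of J segments, though TTN also admits leucine codons. Lacking the run does not make a segment non-functional. Of those 3, Trbj1-6 and Trbj1-7 are annotated as J genes and Trbj2-6 as a pseudogene. Capitals show where the run was found.
Trbj2-7 (chr6:41543810-41543856, plus strand): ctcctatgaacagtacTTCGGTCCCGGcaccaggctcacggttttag
Trbj1-5 (chr6:41535084-41535133, plus strand): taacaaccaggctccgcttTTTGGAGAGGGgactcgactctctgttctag
Trbj1-1 (chr6:41533864-41533911, plus strand): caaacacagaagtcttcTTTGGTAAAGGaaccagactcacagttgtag
Trbj1-6 (chr6:41535554-41535606, plus strand): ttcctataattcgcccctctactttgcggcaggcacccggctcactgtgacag
Trbj1-7 (chr6:41535642-41535687, plus strand): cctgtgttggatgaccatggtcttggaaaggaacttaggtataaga
Trbj2-6 (chr6:41543598-41543645, plus strand): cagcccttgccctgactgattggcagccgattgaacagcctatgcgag
The run was present in 11 of 14 Trbj segments, in 46 of 60 Traj segments of the annotation, and in the first 51 bases of 1.21% of 141126 other annotated transcripts. A match is a description of the letters only.

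The last 60 bases of a Trbv segment hold the end of its framework and the start of the third complementarity-determining region. Capitals begin at the conserved cysteine codon. The 3 segments with the highest reads, Trbv1 with its different codon after the cysteine, and the segment whose groups did not overlap are shown, with the gene's position.
Trbv16 (chr6:41151740-41152230, plus strand): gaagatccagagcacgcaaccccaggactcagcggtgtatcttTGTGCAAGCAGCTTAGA
Trbv12-2 (chr6:41118851-41119364, plus strand): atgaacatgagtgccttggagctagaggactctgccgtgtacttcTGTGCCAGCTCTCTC
Trbv13-2 (chr6:41121396-41121832, plus strand): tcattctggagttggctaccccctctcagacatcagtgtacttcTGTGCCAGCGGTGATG
Trbv1 (chr6:40891229-40891885, plus strand): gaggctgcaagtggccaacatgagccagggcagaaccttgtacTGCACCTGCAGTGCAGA
Trbv31 (chr6:41557691-41558452, minus strand): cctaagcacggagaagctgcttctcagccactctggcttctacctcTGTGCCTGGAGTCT

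Many Trav segments are copies of one another, which bears on every single-segment Trav value below. The last 60 bases of 4 Trav14 copies are shown, with capitals where a copy differs from Trav14d-1.
Trav14d-1 (chr14:52855614-52856166, plus strand): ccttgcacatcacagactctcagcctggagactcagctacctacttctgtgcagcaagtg
Trav14-1 (chr14:53554022-53554558, plus strand): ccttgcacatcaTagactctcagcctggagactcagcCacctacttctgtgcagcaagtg
Trav14-2 (chr14:53640701-53641225, plus strand): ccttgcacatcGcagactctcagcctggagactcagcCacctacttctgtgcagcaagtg
Trav14-3 (chr14:53763173-53763694, plus strand): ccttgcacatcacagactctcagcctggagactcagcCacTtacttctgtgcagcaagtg
Each of the 3 other copies differed from Trav14d-1 at 2 of these 60 bases. Over whole transcripts, the median Trav segment shared 68.5% of its 31-base words with another gene, and 73 of 103 shared over 50%. The longest transcripts of 16 Trav segments were identical to one of another gene. The median Trbv segment shared none, 25 of 35 Trbv segments had no shared word, 3 shared over 50% (Trbv4, Trbv5 and Trbv8), and neither Trac nor any of the 14 Trbj segments had one. None of the genes identical to those 16 Trav segments was among the 103, so reads of both genes can stand under a single symbol. Of the segments named below, this holds for Trav9d-3, Trav14d-1, Trav3d-3 and Trav12d-2. Single Trav values are therefore uncertain, since reads from copies can be pooled or split between them. Trav results are also given by numbered family.

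Trbc1 and Trbc2 were nearly alike in their first coding exon, which differed at 1 of 375 bases. The 143 coding bases after it differed at 22, shown in capitals.
Trbc1 (chr6:41538218-41539881, plus strand): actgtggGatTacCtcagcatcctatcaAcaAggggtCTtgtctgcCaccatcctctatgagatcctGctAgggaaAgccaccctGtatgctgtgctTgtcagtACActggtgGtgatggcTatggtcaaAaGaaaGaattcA
Trbc2 (chr6:41546730-41548352, plus strand): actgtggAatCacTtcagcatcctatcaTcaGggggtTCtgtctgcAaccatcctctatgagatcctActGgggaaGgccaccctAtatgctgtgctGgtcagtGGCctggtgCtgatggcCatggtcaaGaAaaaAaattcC
The split of reads between these genes is uncertain for the same reason.

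The libraries held between 49108969 and 71399847 estimated reads, so 3 reads correspond to 0.0420 to 0.0611 CPM (counts scaled to library size). Library sizes were adjusted by the trimmed mean of M-values (TMM). Summed CPM of 10 T cell markers lay between 2814 and 3287 in the 8 libraries, on the plain-total scale. All 6 fibroblast markers had lower fitted levels with osteopontin, 4 with an unadjusted edgeR p under 0.05 and 0 called, and their sums were 290 CPM in null library 1, 151 in null library A, 24.3 in osteopontin library B and 6.28 to 9.90 in the other 5. All 7 B cell markers were also lower, 1 with an unadjusted edgeR p under 0.05 and 0 called, and their sums were 317 CPM in osteopontin library B and 551 to 877 in the others. The part of these differences in the values below was not tested. Over all 18631 genes tested, 0 were called and 3.93% had an unadjusted edgeR p under 0.05.

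The constant genes come first, because every finished receptor transcript carries one. Trac, the alpha constant gene, was at 138, 133, 119 and 111 CPM with osteopontin and at 122, 155, 126 and 135 CPM without. The groups overlapped, and the highest and the lowest library were null 2 and osteopontin B. The log2 fold change of osteopontin over null was -0.10 (SE 0.088, 95% interval -0.29 to 0.088, edgeR adjusted p = 1.00).

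Trbc1 was at 351, 381, 389 and 387 CPM with osteopontin and at 368, 384, 394 and 369 CPM without it. Its log2 fold change was -0.0067 (SE 0.059, 95% interval -0.13 to 0.12), a sign that changed with the setting. Trbc2 was at 613, 681, 635 and 585 CPM with osteopontin and at 569, 661, 584 and 602 CPM without. Its log2 fold change was 0.058 (SE 0.066, 95% interval -0.083 to 0.20). Library 2 was the highest for Trbc2 in both groups, and no constant gene passed the test. These 3 intervals exclude a change of 1.5-fold in either direction.

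Trbc1 held 37.5% ± 1.78 (SD, n = 4) of Trbc reads with osteopontin and 38.6% ± 1.53 (SD, n = 4) without. Its share ran from 35.9% in osteopontin library 2 to 40.3% in null library A, and the groups overlapped. Per length, in TPM (reads scaled to transcript length and library), the summed level of the beta constant genes was 8.50 to 11 times that of Trac in the 8 libraries. Trac itself ranged from 286 to 364 TPM.

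**Figure D1:**
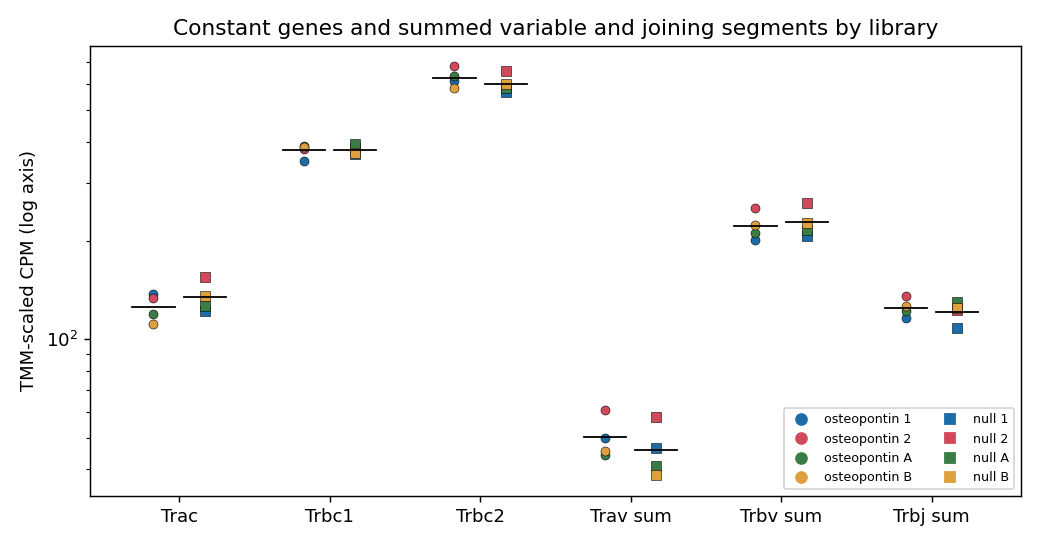
TMM-scaled CPM on a log axis for Trac, Trbc1, Trbc2 and the sums over Trav, Trbv and Trbj segments. Circles are osteopontin libraries and squares null libraries, colours mark the library name, and black lines are group means. The groups overlap in every column, and library 2 of both groups is the highest for the Trav and Trbv sums.

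Summed levels of the variable segments also overlapped between the groups. All Trav segments together held 49.9, 60.9, 44.1 and 45.6 CPM with osteopontin and 46.5, 57.9, 41.0 and 38.4 CPM without. Group means were 50.1 ± 7.59 and 45.9 ± 8.65 CPM (SD, n = 4 each). Trbv segments together held 201, 251, 211 and 223 CPM with osteopontin and 207, 261, 216 and 227 CPM without. Their means were 222 ± 21.5 and 228 ± 23.6 CPM. Library 2 stood highest in both groups and for both loci. Per length, Trav segments summed to 278 to 423 TPM, near the range of Trac, whereas Trbv segments summed to 1460 to 1880 TPM against 2883 to 3218 TPM for Trbc. Both Trbd genes, which are 12 and 14 bases long, were at 0 reads in every library.

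Tested one by one, 89 of the 157 genes passed the filter on low counts: 49 Trav, 23 Trbv, 14 Trbj and the 3 constant genes. The other 68 did not enter the test. None of the 89 passed an adjusted p of 0.05 in edgeR, where 0% of the 18631 genes tested passed. At an unadjusted p under 0.05 there was 1 of 89, beside 3.93% of all tested genes. DESeq2, which tested 132 of the receptor genes, called 0 of them, beside 0.25% of 30430 genes. It gave 7 of the 132 an unadjusted p under 0.05, beside 4.94% of all genes it tested. Limma voom called 0 of the 89, beside 0% of the 18631 genes, and gave 4 an unadjusted p under 0.05, beside 5.32% of all. The fitted levels were higher with osteopontin for 44 and lower for 45, with a median log2 fold change of -0.0067 beside 0.00040 over all tested genes.

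How far a difference can be bounded depended on the locus. The 95% interval lay within a 2-fold change either way for 15 of 23 tested Trbv segments, 12 of 14 Trbj segments and 1 of 49 Trav segments. Median standard errors of the log2 fold change were 0.29 for Trbv, 0.25 for Trbj and 1.47 for Trav. The intervals of the other 48 tested Trav segments did not exclude a 2-fold change. The median biological coefficient of variation in edgeR was 1.28 for tested Trav segments, beside 0.158 from counting alone. The medians of other genes of like level were nearly as high. At 0.2 to 1 CPM the median was 1.38 for 36 Trav segments and 1.26 over all 4436 tested genes. Of the 36, 24 lay above the all-gene median and 10 above a value that 444 of the 4436 genes exceeded. At 1 to 5 CPM the median was 0.763 for 11 Trav segments and 0.701 over all 3199. Of the 11, 8 lay above the all-gene median and 0 above a value that 320 of the 3199 exceeded. The fit draws such values towards those of genes of like level, so likeness of the medians is partly built in.

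The groups did not overlap for 2 of the 89 tested genes, Trbv31 and Trbj1-6, beside 3.47% of all tested genes. Trbv31 was at 3.10, 3.28, 3.45 and 3.29 CPM with osteopontin and at 5.86, 6.94, 4.49 and 4.88 CPM without. Every osteopontin library was below every null library, and the osteopontin values lay close together. Its share of Trbv reads was 1.49% ± 0.137 with osteopontin and 2.43% ± 0.373 without (SD, n = 4 each). The shares did not overlap either, so any pairing of the libraries gives the same direction. The log2 fold change was -0.76 (SE 0.32, 95% interval -1.44 to -0.068) with an unadjusted p of 0.033 and an edgeR adjusted p of 1.00, so it did not pass. Leaving out 1 library at a time moved the unadjusted edgeR p from 0.028 to 0.123. It was under 0.05 in 11 of 19 alternatives, and the lowest adjusted p was 0.347, with DESeq2.

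Trbj1-6, a J segment without the searched run, was named after its values were seen. It was at 8.54, 10.8, 8.71 and 8.96 CPM with osteopontin and at 8.35, 5.48, 8.28 and 7.50 CPM without. As a share of Trbj reads the groups overlapped, with 7.73% in null library 1 above 7.09% in osteopontin library B. The edgeR fit gave a log2 fold change of 0.32 (SE 0.24, unadjusted p = 0.192, adjusted p = 1.00).

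Among Trbv segments, Trbv16 had the most reads in all 8 libraries. It held 13.6%, 21.2%, 16.9% and 12.9% of Trbv reads with osteopontin and 13.5%, 22.6%, 16.1% and 14.7% without. The order of the libraries was almost the same in both groups, with library 2 far above the others. In CPM its log2 fold change was -0.095 (SE 0.29, edgeR adjusted p = 1.00).

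Per length, Trbv16 had a mean of 260 TPM over the 8 libraries, Trbv13-2 177 TPM and Trbv12-2 154 TPM. Next were Trbv15 with 102 TPM, Trbv1 with 93.9 TPM and Trbv13-1 with 93.0 TPM. Trbv3 and Trbv19, with 71 and 41.2 TPM, were among the 8 highest by reads but ranked the 12th and the 15th per length. In shares of reads, Trbv12-2 held 9.34% ± 1.19 with osteopontin and 9.23% ± 1.64 without. Trbv13-2 held 9.11% ± 1.08 and 7.93% ± 1.08. Trbv1, whose cysteine codon is followed by a threonine codon in place of the alanine codon of the other 4 printed above, held 5.96% ± 1.21 and 6.97% ± 0.339.

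Log2 fold changes of these segments lay close to 0 against their errors: -0.017 (SE 0.17) for Trbv12-2, 0.16 (SE 0.20) for Trbv13-2, -0.25 (SE 0.21) for Trbv1 and 0.10 (SE 0.24) for Trbv15. They were -0.30 (SE 0.26) for Trbv3, 0.20 (SE 0.27) for Trbv13-1 and -0.043 (SE 0.21) for Trbv19. The signs for Trbv16, Trbv12-2, Trbv13-2, Trbv15, Trbv3, Trbv13-1 and Trbv19 changed under at least 1 alternative.

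The Trbv segments with the smallest unadjusted p on the higher side were Trbv26, Trbv22 and Trbv20. Trbv26 was at 4.13, 2.46, 0.977 and 3.62 CPM with osteopontin and at 1.44, 1.32, 1.67 and 1.38 CPM without. The groups overlapped because osteopontin library A was the lowest of all 8, and the unadjusted edgeR p was 0.10. Trbv20 was at 3.68, 4.50, 6.91 and 7.86 CPM with osteopontin and at 2.86, 4.26, 3.89 and 5.58 CPM without, with an unadjusted edgeR p of 0.205. Trbv22, an annotated pseudogene, had 11, 30, 0 and 43 reads with osteopontin and 0, 13, 0 and 0 without. On the lower side, after Trbv31, came Trbv17 and Trbv13-3 with log2 fold changes of -0.30 (SE 0.24) and -0.32 (SE 0.25).

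The evenness of usage can be put as an effective number of segments, the exponential of the Shannon entropy of the read shares, which equals the number of segments when all are used alike. For Trbv it was 17.7, 15.3, 16.0 and 16.7 with osteopontin and 17.3, 14.8, 15.9 and 16.8 without. The least even library was library 2 in each group, and the most even was library 1 in each. Group means were 16.4 ± 1.02 and 16.2 ± 1.10 (SD, n = 4 each).

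Libraries of the same name resembled each other in Trbv usage across the 2 groups. Trbv2 held 7.44% of Trbv reads in osteopontin library 1 and 7.96% in null library 1, and 2.32% to 4.10% in the other 6. Trbv29 held 1.77% in osteopontin library A and 2.22% in null library A, and 4.11% to 6.28% in the others. Trbv4, by contrast, held 7.89% in osteopontin library B but 4.05% in null library B. Trbv4 shares 73.6% of its 31-base words with the overlapping annotation 5830405F06Rik, so its reads can be split with that gene. These 3 were the segments with the largest ratios of the highest to the lowest library among Trbv segments at 5 CPM or more, at 2.98, 4.38 and 2.76.

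Over the 19 Trbv segments with a mean of at least 100 reads, deviations of log2 usage from the own group's mean were correlated between same-named libraries with Pearson's r of 0.71, 0.37, 0.30 and 0.43 for the names 1, 2, A and B. The 12 pairs with different names gave r between -0.45 and 0.035, with a median of -0.12. Each osteopontin library had its highest r with the null library of its own name. Deviations within a group sum to 0, which pulls the correlations of other pairs down, and segments of a library share its depth. Over the 14 Trbj segments, the same-named values were 0.17, 0.30, 0.26 and 0.37, beside -0.64 to 0.29 for the others. Over all 18631 tested genes, the 4 same-named values were 0.082, 0.074, 0.089 and 0.13, beside -0.097 to 0.023 for the others. Over segments with a mean of at least 500 reads, the same-named values were 0.86, 0.60, 0.69 and 0.24 for 14 Trbv segments, and -0.014, 0.040, 0.60 and 0.26 for 9 Trbj segments, of which 1 of 4 libraries was best with its own name. Over 9 Trav families with a mean of at least 100 reads they were 0.48, 0.25, 0.30 and -0.040, beside -0.61 to 0.46 for the others. Over 5 Trav segments at that minimum they were 0.75, 0.41, 0.47 and 0.31, beside -0.79 to 0.54. The likeness by name was thus seen at both minimum counts in Trbv usage. In Trbj usage it was positive for every name at the minimum of 100 reads but not of 500. In Trav usage it was positive for every name over segments but not over families. It is a description without a test.

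**Figure D2:**
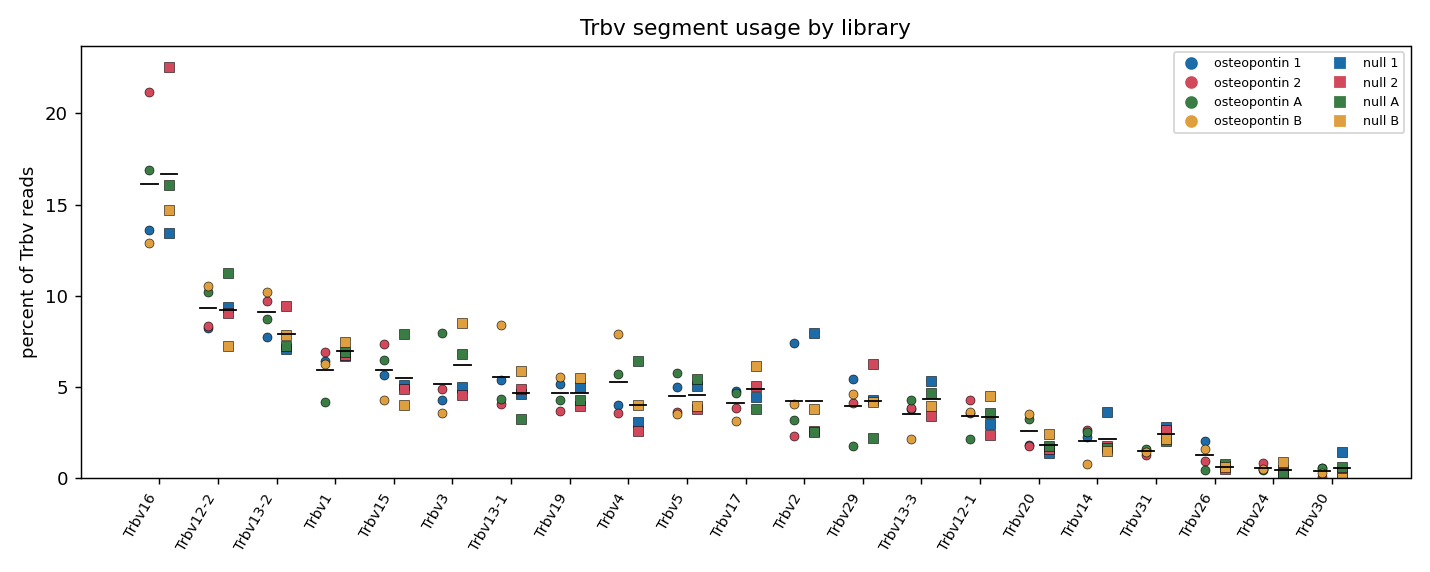
Share of Trbv reads, in percent, on each Trbv segment with a mean share of at least 0.4%. Circles are osteopontin libraries, squares null libraries, colours mark library names and black lines are group means. Trbv16 is highest throughout, library 2 of both groups stands apart at Trbv16 and library 1 of both at Trbv2.

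All 14 Trbj segments had at least 3 reads in all 8 libraries. Trbj2-7 held 11.2%, 12.9%, 8.0% and 11.5% of Trbj reads with osteopontin and 12.8%, 13.3%, 10.5% and 12% without. Trbj1-1 held 8.64%, 9.03%, 9.57% and 9.97% with osteopontin and 9.42%, 9.69%, 10.4% and 16.1% without, so that null library B stood apart. Trbj1-5 was at 15.4, 12, 18.0 and 14.4 CPM with osteopontin and at 9.39, 11.7, 15.0 and 6.68 CPM without. The groups for Trbj1-5 overlapped, and its log2 fold change was 0.48 (SE 0.24, 95% interval -0.026 to 0.99, edgeR unadjusted p = 0.062, adjusted p = 1.00).

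The 7 Trbj1 segments, which lie between the Trbv segments and Trbc1, held 55.9% ± 5.18 of Trbj reads with osteopontin and 52.4% ± 3.17 without. The highest value was 63.7% in osteopontin library A and the lowest 48.7% in null library 1. The effective number of Trbj segments was 12.9 ± 0.274 and 12.8 ± 0.607 of 14, so usage was close to even by this measure. Single segments still differed, with mean shares over the 8 libraries from 3.48% for Trbj1-7 to 11.5% for Trbj2-7.

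Reads were not limited to J segments with the searched run. The 3 segments without it held 13.2% to 19.0% of Trbj reads. Of these, Trbj1-6, annotated as a J gene, held 7.40% ± 0.415 with osteopontin and 6.15% ± 1.34 without. Trbj2-6 and Trbj1-7 together held 7.16% to 11.3%. Trbj2-6, the annotated pseudogene, held 5.72% ± 1.26 with osteopontin and 6.07% ± 1.88 without. Trbj1-7 held 3.77% ± 0.398 and 3.19% ± 0.732, the lowest mean of the 14. Per length, Trbj2-6 had a mean of 988 TPM, above Trbj2-2, Trbj2-4, Trbj2-5 and Trbj1-7. TPM values of features this short depend strongly on the estimated effective length, and they were not compared with those of V or C genes. Whether these reads came from joined or from unjoined transcripts was not tested.

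**Figure D3:**
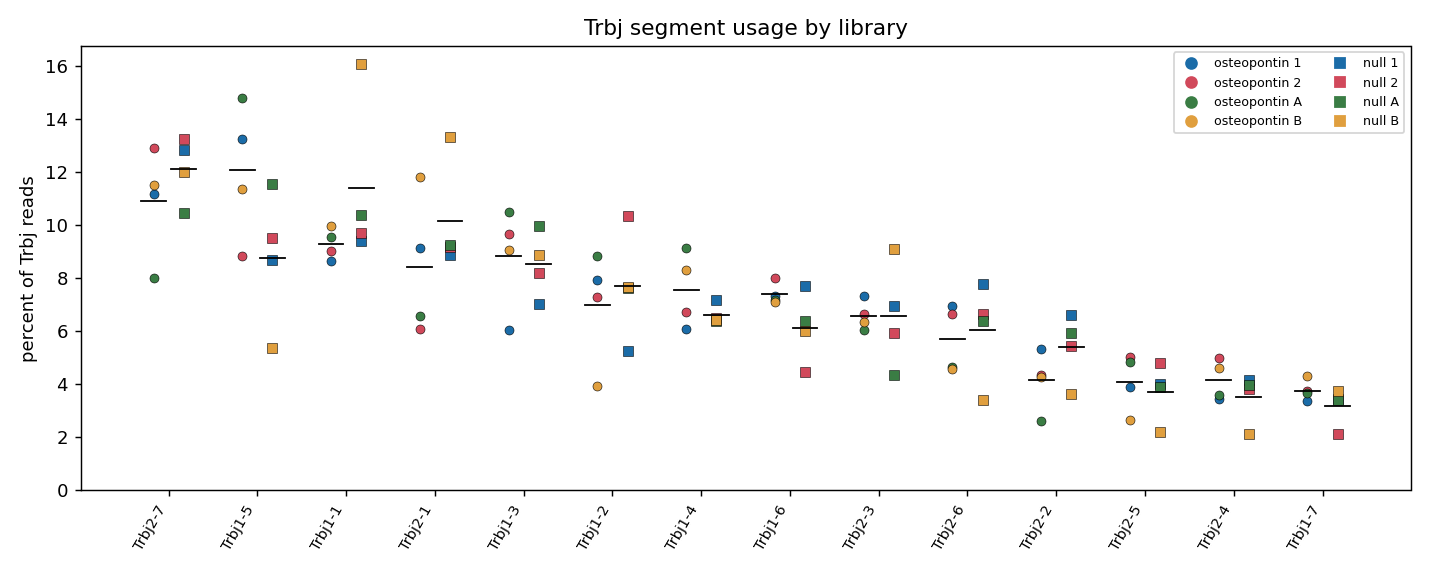
Share of Trbj reads, in percent, on each of the 14 Trbj segments. Circles are osteopontin libraries, squares null libraries, colours mark library names and black lines are group means. Trbj2-6, an annotated pseudogene, lies within the range of other segments, and Trbj1-1 is highest in null library B.

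Trav usage was spread more thinly and varied from library to library. Of 103 Trav segments, 12 had at least 3 reads in all 8 libraries and held 49.6% of all Trav reads. A further 15 had 0 reads in every library, of which 13 were pseudogenes. For 57 Trav segments at least 1 library held 30 or more reads while another held 0, and the same was seen for 6 of 35 Trbv segments. A count of 0 allows a share of up to 0.0725% to 0.134% of a library's Trav reads. Such limits and counts cover counting error only, since copied molecules were not marked.

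By numbered family, 10 of 22 Trav families had at least 3 reads in all 8 libraries and held 91.0% of Trav reads. There were 7 families with 30 or more reads in 1 library and 0 in another. The family Trav16 held the highest share in the mean over all 8 libraries, at 14.5% ± 3.60 of Trav reads with osteopontin and 16.0% ± 2.45 without. Trav14 held 15.5% ± 4.89 and 12.7% ± 5.10, so that it had the higher mean of these families in the osteopontin group. Trav13 held 12%, 16.0%, 15.0% and 14.7% with osteopontin and 13.0%, 11.3%, 7.52% and 8.06% without, and the groups overlapped through library 1.

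**Figure D4:**
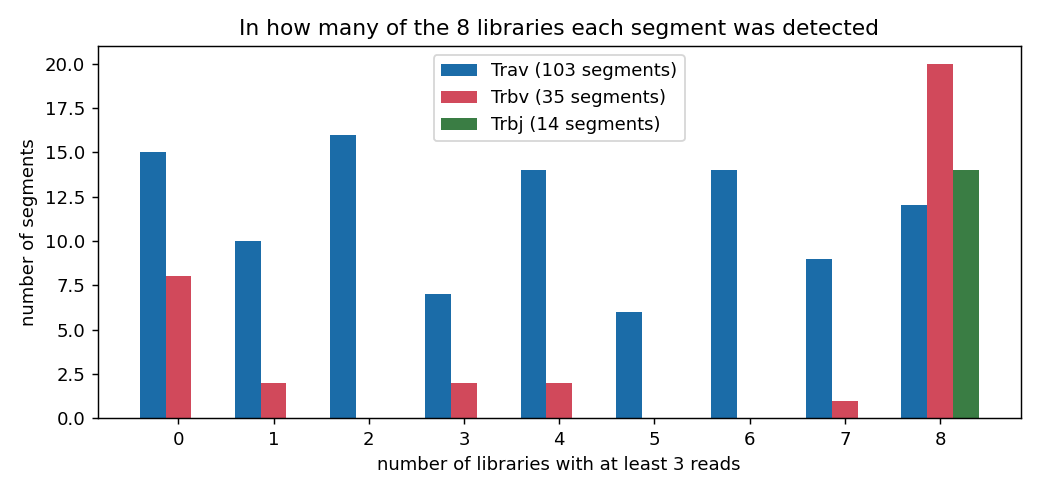
Number of Trav, Trbv and Trbj segments by the number of libraries, out of 8, in which they had at least 3 reads. All 14 Trbj and 20 of 35 Trbv segments are in the right-most column, while Trav segments are spread over all columns with 12 in the right-most.

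The number of Trav segments with at least 3 reads was 67, 55, 35 and 32 with osteopontin and 58, 59, 55 and 31 without. Libraries with few segments were found in both groups. The 3 lowest numbers were in the 3 libraries with the fewest Trav reads, at 2573, 2243 and 2505 reads, while null library 1 had 58 segments from 2686 reads. The effective number of Trav segments was 31.5 ± 9.23 with osteopontin and 32.7 ± 7.10 without. Osteopontin library 2 and null library 2 had 48 detected segments in common, which was 87.3% of the first list and 81.4% of the second. The libraries named B had 17 in common, 53.1% and 54.8% of their lists, fewer than the 27 to 30 that osteopontin library B had in common with the other null libraries. Detected lists did not pair by name throughout.

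Trav16 was the Trav segment with the highest level per length, at 38.3 TPM over the 8 libraries. It was at 3.83, 10.7, 5.91 and 4.04 CPM with osteopontin and at 5.59, 8.50, 3.78 and 6.06 CPM without. Library 2 was again the highest in each group, and the log2 fold change was 0.033 (SE 0.37, edgeR adjusted p = 1.00), with a sign that changed with the setting. The 8 Trav segments with the most reads were not the 8 highest per length. Of the others among these 8, Trav13-1 had a mean of 19.6 TPM, Trav14d-1 18.4 TPM, Trav3d-3 13.8 TPM, Trav9d-3 12.7 TPM, Trav16n 11.2 TPM, Trav13-2 9.83 TPM and Trav14-1 8.46 TPM. Their log2 fold changes ran from -0.49 (SE 1.05) for Trav14-1 to 0.82 (SE 0.72) for Trav13-2.

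No Trav segment had an unadjusted edgeR p under 0.05, and those with the smallest p in each direction were as follows. Trav14-3 had 35.9, 87.9, 136 and 52.0 reads with osteopontin and 33.3, 53.0, 10.1 and 0 without (log2 fold change 1.75, SE 1.18, edgeR unadjusted p = 0.159). Trav12d-2 had 89.0, 54.0, 69.0 and 85.0 reads with osteopontin and 10.0, 67.0, 26.0 and 0 without (log2 fold change 1.64, SE 1.17). Trav13n-4 had 10.1, 112, 0 and 100 reads with osteopontin and 15.0, 18.0, 32.0 and 0 without. In all 3 the groups overlapped, and null library B held 0.

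On the lower side, Trav9n-4 had 0, 13.3, 0 and 0 reads with osteopontin and 25.0, 62.0, 63.0 and 0 without (log2 fold change -3.50, SE 1.97). Trav7d-6 had 0, 29.0, 0 and 0 reads with osteopontin and 54.8, 53.2, 65.1 and 0.996 without. Trav12-1 had 12, 17.5, 0 and 0 reads with osteopontin and 20, 11.3, 72.8 and 0 without. Osteopontin library 2 was the exception among treated libraries for the first 2 of these, and null library B among untreated ones for all 3.

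The segments tied to innate-like lineages are Trav11, used by the semi-invariant alpha chain of natural killer T cells, and Trav1, used by that of mucosal-associated invariant T cells. Both chains also need a particular Traj segment, which was not analysed here. Trav11 and its copy Trav11d together had 83 reads in osteopontin library 1, 80 in null library A, 11 in null library 2 and 0 in the other 5. The reads of osteopontin library 1 were assigned to Trav11 and those of null library A to Trav11d, which shares 100% of its 31-base words with Trav11. Trav1 had 14 reads in osteopontin library 1, 25 in null library 1 and 0 elsewhere. Neither lineage segment was detected in all libraries of either group.

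The spread of variable segments between libraries of a group was set beside that of other genes of like level. Among the 15 Trbv segments at 5 to 100 CPM, the median coefficient of variation was 0.290 in the osteopontin group and 0.256 in the null group, against 0.137 and 0.127 over 8012 tested genes in that range. The medians from counting alone were 0.039 for the Trbv segments and 0.023 for all genes. In the narrower range of 5 to 20 CPM, chosen after seeing the data because most Trbv segments lie there, the medians over all 2905 tested genes were 0.218 and 0.201, and those of 13 Trbv segments 0.290 and 0.256. The median biological coefficient of variation in edgeR was 0.329 for both sets in this range, and 7 of the 13 Trbv segments lay above the median of all genes. That measure draws each gene towards others of like level, so likeness between the sets is partly built in. At 1 to 5 CPM, 6 Trbv segments had medians of 0.437 and 0.337, below the 0.478 and 0.441 of all 3199 tested genes. Whether Trbv segments spread more widely than other genes thus depended on the range and on the measure. The 11 Trbj segments in either range had medians of 0.234 and 0.243.

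**Figure D5:**
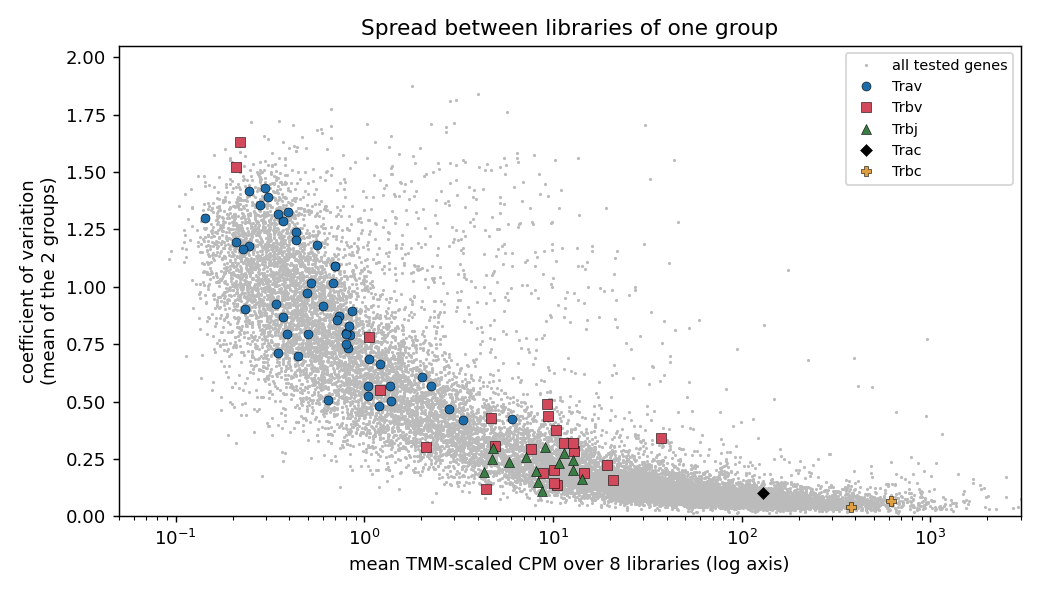
Coefficient of variation of CPM between libraries of a group (mean of both groups) against mean TMM-scaled CPM on a log axis. Grey points are all tested genes and coloured symbols are receptor genes. Trbc and Trac lie low at high CPM, Trbv segments lie mostly between 5 and 20 CPM in the cloud of other genes, and Trav segments lie at the low end of CPM with wide spread.

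The other genes of the receptor pathway, like all genes tested, did not pass the edgeR test. Of 36 listed genes for receptor subunits, proximal signalling, recombination and transcription factors, 33 were tested. Of these, 0 were called by edgeR, beside 0 of all 18631 genes tested. An unadjusted edgeR p under 0.05 was found for 0 of them, beside 3.93% of all tested genes. Fitted levels were higher for 14 and lower for 19, with a median log2 fold change of -0.012. Cd3e, a signalling subunit of the receptor complex, was at 522 ± 28.3 CPM with osteopontin and 492 ± 31.5 CPM without. Cd247, the zeta chain, was at 140 ± 12.2 and 148 ± 22.9 CPM. Both receptor types use these subunits.

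The coreceptors and the gamma-delta genes describe which T cells gave the RNA. Cd8a was at 964 ± 51.6 and 919 ± 66.2 CPM and Cd8b1, needed for the alpha-beta form of CD8, at 90.8 ± 12.7 and 96.1 ± 6.94 CPM (SD, n = 4 each). Per length, mean levels over the 8 libraries were 549 TPM for Cd8a, 104 TPM for Cd8b1 and 31.1 TPM for Cd4. Cd4 was at 44.9 ± 3.0 CPM with osteopontin and 51.4 ± 3.71 CPM without (log2 fold change -0.20, SE 0.0996). Trdc, the delta constant gene, averaged 137 TPM. The gamma constant genes Tcrg-C1, Tcrg-C2, Tcrg-C3 and Tcrg-C4 averaged 385, 442, 7.75 and 204 TPM. Trac averaged 316 TPM, Trbc1 1243 TPM and Trbc2 1801 TPM. The comparison of receptor types thus depends on the genes chosen, and shares of cells cannot be read from it.

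Among genes of recombination and of immature T cells, Ptcra and Rag1 were low and Dntt was higher. Ptcra, the surrogate alpha chain of thymocytes, had at most 0.154 CPM. Rag1, a subunit of the recombinase, was at 0.112, 0, 0.394 and 0 CPM with osteopontin and 0.502, 0, 0.321 and 0 CPM without, so reads were found only in the libraries named 1 and A. Dntt, which adds bases at the joins, was at 6.26 ± 2.23 CPM with osteopontin and 8.67 ± 2.48 CPM without, with a log2 fold change of -0.47 with an SE of 0.31 and an adjusted p of 1.00 in edgeR.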

How the data were processed

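RNA from 8 libraries of CD45+ intraepithelial lymphocytes was extracted with a column kit and sequenced with a stranded protocol, per the labels' protocols. The authors quantified transcripts with Salmon, per the submitters' processing notes. The version of Salmon and the build were not given in the sources used here. Deposited tables hold an estimated count and TPM per transcript, TPM being scaled to length and library. Both were summed per gene here. The members and gene lists were chosen with earlier results of these data known.

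Estimated counts were rounded and fitted over all genes with edgeR 4.0.16 (filterByExpr with a minimum count of 10, TMM, quasi-likelihood test, two-sided, group only, Benjamini-Hochberg over all 18631 genes tested, threshold 0.05). The fit was run on simulated counts with the same spread for every gene, below that of the tested Trav, Trbv and Trbj segments. That run therefore does not show how well changes in these segments would be found. Usage was the share of a locus' reads. Genes were named by rule: constant genes, the 8 Trav and 8 Trbv with most reads, the 3 with the smallest p in each direction, non-overlapping Trav and Trbv at 1 CPM or more, the 3 most variable at 5 CPM or more, the top 3 Trbj, Trav11 and Trav1. Alternatives were DESeq2 1.42.0, limma voom 3.58.1, other scalings, no filter, a length offset, a block by library name, summed families and leaving out libraries. Gamma constant genes carry the older symbols (Tcrg-C1) in the tables.

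Whether the library names pair the libraries was checked by the correlation of deviations from group means. Over all tested genes 1 of 4 same-named pairs exceeded the threshold of 0.1, so the reported fit did not pair the libraries. All 4 same-named values (0.074 to 0.13) lay above those of other-named pairs (-0.097 to 0.023). The threshold therefore does not settle whether the names pair the libraries, and a fit with the name as a block is given below.

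Besides the groups described, summed CPM ranges of the other marker lists, on plain totals, were 2278 to 2776 (intraepithelial), 786 to 979 (gamma-delta), 3019 to 9373 (plasma cell), 15.9 to 26.6 (natural killer), 76.6 to 161 (macrophage and dendritic), 291 to 360 (enterocyte) and 57.5 to 117 (endothelial). No listed marker was at 0 in all libraries. Plasma cell sums were 3850.3, 7057.9, 8568.8 and 3958.5 CPM with osteopontin and 4621.3, 6768.8, 9373.4 and 3019.3 CPM without. Library A was thus the highest in both groups, while the fibroblast and B cell sums did not follow the library names. The part of such differences in the likeness of segment usage by name was not tested.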

Additional observations from a re-analysis of the deposited data

Results flagged for a closer look

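Each of 93 groups of 4 libraries was checked for a value far from the other 3, measured by its gap to the nearest value over the range of the group; 10 were found. In 6 of them the other 3 libraries were at 0, which alone sets the gap equal to the range. About 1 in 20 groups is found by chance where values are normally distributed, a rate that does not hold for such sparse counts. Among Trbv segments, Trbv29 was at 3.74 CPM in osteopontin library A, where the others were at 10.3 to 11 CPM, and null library A was also the lowest of its group for Trbv29. Trbv17 was at 7.05 CPM in osteopontin library B, where the others were at 9.69 to 9.86 CPM. The pseudogene Trbv22 was at 0.204 CPM in null library 2 and at 0 in the other null libraries.

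Among Trav segments, Trav3d-3 was at 3.996 CPM in null library 2, where the others were at 1.31 to 1.70 CPM; osteopontin library 2 was also the highest of its group. Trav9n-4 and Trav7d-6 were at 0.195 and 0.426 CPM in osteopontin library 2 and at 0 in the other osteopontin libraries. Trav7d-6 was at 0.0153 CPM in null library B, where the others were at 0.836 to 0.949 CPM. Trav11 was at 1.17 CPM in osteopontin library 1 and at 0 in the other osteopontin libraries. Trav1 was at 0.197 CPM in osteopontin library 1 and at 0.433 CPM in null library 1, and at 0 in the other libraries of each group.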

How the results depend on the processing

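No receptor gene passed the adjusted threshold under any of the 19 alternatives. Over all genes, 0 were called in the reported edgeR fit, 76 with DESeq2, 4 with no filter, 49 without both B libraries, and 0 to 37 when 1 library was left out, 37 without osteopontin library B (1 each without osteopontin 2, null 1 or null 2); the cause was not tested. With the library name as a replicate block, 0 genes and 0 receptor genes were called, against 0 and 0 without it. Over all genes each library correlated best with its own name (4 of 4), a hint from the data and not from the design. The block turned the sign for Trav16 (-0.037), Trav16n (0.031) and Trbv2 (0.0046) and changed no call.

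Of 823 alternative log2 fold changes over 45 named genes, 58 changed sign and 0 passed the threshold; 22 genes kept their sign. Leaving out 1 library gave ranges of -0.025 to 0.025 for Trbc1, -0.38 to 0.25 for Trav16, -0.23 to 0.32 for Trav9d-3, -0.26 to 0.66 for Trav3d-3, -0.38 to 0.17 for Trav16n, -0.34 to 0.18 for Trbv16, -0.12 to 0.072 for Trbv12-2, -0.10 to 0.29 for Trbv15, -0.084 to 0.32 for Trbv13-1, -0.15 to 0.043 for Trbv19, -0.39 to 0.19 for Trbv29, -0.37 to 0.39 for Trbv2, -0.24 to 0.032 for Trbj2-7, -0.14 to 0.029 for Cd247, -0.15 to 0.0041 for Cd8b1, -0.031 to 0.12 for Trdc and -0.10 to 0.015 for Tcrg-C1. Without null libraries 1 and A, chosen after seeing the data, signs turned for Trbc1 (0.00), Trbc2 (-0.0079), Trav16 (-0.25), Trav14d-1 (-0.018), Trav3d-3 (-0.21), Trav12-1 (0.32), Trbv12-2 (0.044), Trbv13-2 (-0.068), Trbv13-1 (-0.092), Trbv2 (0.26) and Trdc (-0.079). Without both B libraries they turned for Trav9d-3 (-0.16), Trav14-1 (0.12), Trbv3 (0.024) and Tcrg-C1 (0.032). A length offset turned Trbc1 (0.037), limma voom turned Trav16n (0.0051) and Trbv2 (0.063), and digit or letter naming as a covariate turned Trbv2 (0.0033).

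The median correlation of same-named libraries in Trbv usage was 0.40 over segments with 100 reads and 0.64 over those with 500, and that in Trbj usage was 0.28 and 0.15. The ratio of the median Trbv coefficient of variation to that of all genes was 2.11 at 5 to 100 CPM and 1.33 at 5 to 20 CPM. Locus totals, effective numbers, largest shares and the Trbc1 share moved by no more than the spread between libraries under every alternative run. Single Trav segments rest on few reads, a locus total of 2243 to 4136 in a library. For tested Trav segments the spread between libraries exceeded that from counting, as it did for all tested genes of like level.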
